A study of Schizosaccharomyces pombe with 4 samples.

Results

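The fission yeast small nuclear RNAs (snRNAs) were examined in wild-type and dbr1Δ cells. The members are the 7 loci whose identifiers start with SPSNRNA, together with the introns that lie inside them, of which there is 1, so that 8 of the 12383 loci in the table were taken. The 5 spliceosomal RNAs among them are U1 (SPSNRNA.01, snu1), U2 (SPSNRNA.02, snu2), U4 (SPSNRNA.04, snu4), U5 (SPSNRNA.05, snu5) and U6 (SPSNRNA.06, snu6). The other 2 are U3A (SPSNRNA.03, snu3) and U3B (SPSNRNA.07, snu32), which belong to the nucleolar U3 RNAs. The intron is int_1725 of the U6 gene. All 8 passed the filter on low counts.

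RNA was sequenced from 4 cultures, 2 of each strain, with strand-specific libraries made after depletion of rRNA. The wild type was strain ED668, whose genotype is h+ ade6-M216 ura4-D18 leu1-32. The mutant carried a deletion of dbr1 and the same mating type and markers otherwise, and came from the Bioneer deletion collection. According to the study's methods it grows slowly in YES. Cultures of both strains were grown in YES medium at 32 °C to an OD600 of 0.4. Dbr1 is the debranching enzyme, which opens the 2′-5′ bond of the lariat that splicing leaves behind.

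In the spliceosome, U1 pairs with the 5′ splice site and U2 with the branch site of an intron. U4 and U6 enter paired with each other and in a complex with U5, U4 is then released, and U6 takes over the pairing with the 5′ splice site and forms the catalytic centre with U2. U5 holds the exon ends. In fission yeast the U6 gene itself holds an intron, which the spliceosome has to remove before the RNA can work. U3 works in the nucleolus, where it guides the cleavage of the ribosomal RNA precursor, and has no part in splicing. U6 is made by RNA polymerase III and bound at its 3′ end by the LSm ring, whereas U1, U2, U4 and U5 carry the Sm ring.

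The sequences below are from RefSeq (assembly ASM294v3) and are written 5′ to 3′ with T for U. The U6 intron is shown because it is the one intron among the members. The U6 gene lies on chromosome I, minus strand, from 2562276 to 2562419, and the intron from 2562324 to 2562373. Its opening bases and its branch-site motif are in capitals.
U6 intron: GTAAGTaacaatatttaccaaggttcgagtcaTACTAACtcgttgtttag
The intron is 50 bases long, between exons of 46 and 48 bases. It opens with GTAAGT, as do 26 of the 155 introns of the same length (16.8%). It holds TACTAAC, which ends 11 bases before the intron does and is found in 20 of the 155 (12.9%). Both were searched on the sense strand only.
U1 and U2 are shown with the stretches that recognise an intron in capitals. Those of U1, ACTTAC, are the reverse complement of the first 6 bases of the U6 intron.
U1 RNA: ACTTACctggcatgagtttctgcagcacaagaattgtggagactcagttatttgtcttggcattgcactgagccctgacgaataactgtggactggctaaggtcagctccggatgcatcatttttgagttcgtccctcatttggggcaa
U2 RNA: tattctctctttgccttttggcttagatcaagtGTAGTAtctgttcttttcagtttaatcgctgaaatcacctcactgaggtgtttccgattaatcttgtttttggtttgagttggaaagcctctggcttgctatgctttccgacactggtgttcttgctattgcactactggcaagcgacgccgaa
U5 is shown with the loop that contacts the exon ends in capitals, and U4, the partner of U6, with none.
U5 RNA: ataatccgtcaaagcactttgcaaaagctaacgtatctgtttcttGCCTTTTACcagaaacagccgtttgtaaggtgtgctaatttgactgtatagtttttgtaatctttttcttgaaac
U4 RNA: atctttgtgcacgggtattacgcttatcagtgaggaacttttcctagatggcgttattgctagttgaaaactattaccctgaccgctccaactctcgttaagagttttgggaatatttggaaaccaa
U1 lies on chromosome II from 3020205 to 3020353 (plus strand), U2 on chromosome I from 959370 to 959556 (minus), U5 on chromosome II from 3236867 to 3236986 (plus) and U4 on chromosome II from 467489 to 467615 (minus).

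Reads of the U3 pair are hard to assign, which is why their sequences are shown together. The first is the stretch of the authors' U3A locus that aligns to U3B, on chromosome I from 987692 to 987947 (minus), and the second is U3B, on chromosome II from 3958832 to 3959086 (minus).
U3A stretch: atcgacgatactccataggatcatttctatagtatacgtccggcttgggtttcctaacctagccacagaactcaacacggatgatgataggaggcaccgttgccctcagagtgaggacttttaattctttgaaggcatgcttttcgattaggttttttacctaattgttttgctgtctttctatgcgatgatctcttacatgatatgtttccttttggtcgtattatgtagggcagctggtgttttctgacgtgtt
U3B RNA: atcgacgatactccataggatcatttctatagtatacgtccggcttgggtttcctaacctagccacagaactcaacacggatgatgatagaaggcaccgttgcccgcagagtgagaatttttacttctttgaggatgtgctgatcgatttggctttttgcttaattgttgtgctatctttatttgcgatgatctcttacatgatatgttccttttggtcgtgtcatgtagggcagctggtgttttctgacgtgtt
Of the 256 aligned columns, 234 (91.4%) are identical. RefSeq places the snu3 RNA 122 bases further downstream than this stretch, and 61 of its bases fall outside the authors' locus. Of the 49-base windows in the U3A stretch, 66.3% had no other place in the genome within the 3 mismatches the authors allowed, and in U3B 66.2%. In U3B and in the authors' U3A locus, the windows with another place included matches to the other U3 gene. Matches outside the snRNA genes were not listed. Reads that match several places were removed by the authors. In U1, U2, U4, U5 and U6 all windows were unique. Those of U6 were taken from the genome with the intron in place, and windows across its spliced junction were not checked.

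The summed counts of all transcripts and introns ran from 19780858 to 36062720 per library. Of the deleted gene, dbr1, wild type had 1535 and 1799 counts against 207 and 164 in the mutant, and the log2 fold change was -2.77 ± 0.12. Strains were compared with edgeR's quasi-likelihood test over 9518 loci (those with 10 or more counts in 2 or more libraries), of which 6401 are transcripts and 3117 introns, and p-values were adjusted by the Benjamini-Hochberg method over all of them. Log2 fold changes compare dbr1Δ with wild type (positive where dbr1Δ was higher) and are given ± their standard error. CPM are counts scaled to a common library total with the trimmed mean of M values (TMM) over transcripts and introns. The TMM scaling itself bears on the result, since taking it from transcripts alone raises the median change over all transcripts by 0.17 on the log2 scale, from -0.18 to -0.01. In bulk cultures, fewer cells that express an RNA and less of it per cell cannot be told apart.

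The 7 snRNA loci together held 1.26% and 1.61% of the counts in the wild-type libraries and 1.14% and 1.16% in the dbr1Δ libraries. Most of this came from the pair of U3 loci, at 0.721% and 0.980% in wild type and 0.585% and 0.593% in dbr1Δ. The spliceosomal RNAs held 0.544% and 0.627% in wild type against 0.556% and 0.568% in dbr1Δ, so that the groups overlapped.

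Per length of the authors' loci (deposited RPKM), the wild-type levels ran from U3B at 9774 and 13078 down to U4 at 410 and 489. U3A followed U3B at 5210 and 7206 RPKM, then came U2 at 4944 and 5238, and U3A and U2 overlapped. U1 at 2522 and 2931 RPKM and U5 at 2293 and 3025 overlapped too. U6 stood at 525 and 636 RPKM in wild type, above U4 without overlap. In dbr1Δ this last pair was in the opposite order, with U4 at 564 and 673 RPKM and U6 at 348 and 391. The authors' loci are much longer than the RNAs that RefSeq gives, with 799 bases for U4 against 127 and 475 for U6 against 94 after splicing. Per length of the RefSeq RNA, U4 and U6 overlapped in wild type, at 2550 and 3042 CPM per kilobase for U4 and 2345 and 2847 for U6. By RefSeq these RNAs are 94 to 256 bases long, around the average fragment size of 200 nt, and how well each was recovered in the libraries was not tested.

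**Figure D1:**
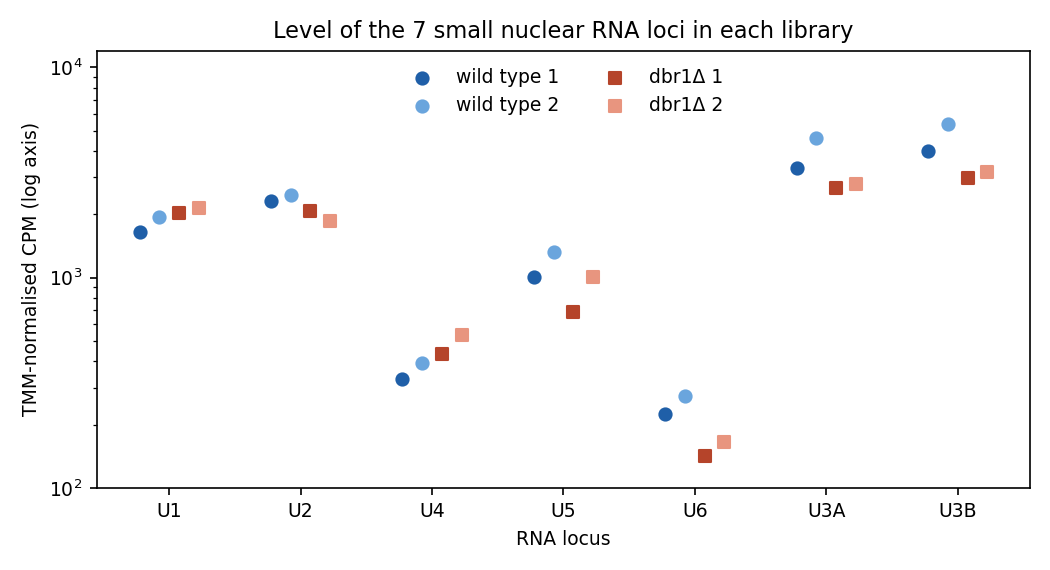
TMM-normalised CPM of the 7 snRNA loci (log axis) in each of the 4 libraries, circles for wild type and squares for dbr1Δ. U6 fell from 224 and 273 to 142 and 166 CPM while U4 rose from 329 and 393 to 432 and 536.

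With edgeR at an adjusted p under 0.05, 4 of the 7 snRNAs were lower in dbr1Δ (U6, U3B, U3A and U2), 1 was higher (U4), and 2 did not pass the test (U1 and U5). Among all tested transcripts 42.6% were lower and 17.8% higher by the same rule. None of the 7 reached a fold of 2, either by edgeR at an adjusted or an unadjusted p under 0.05 or by DESeq2, against 2.81% of transcripts lower and 6.69% higher past that fold. An unadjusted p under 0.05 from edgeR was found for 6 of the 7. The share of all transcripts at that threshold was not counted, so this is no trait of the snRNAs by itself. The median log2 fold change of the snRNAs was -0.46, and of all tested transcripts -0.18. Both dbr1Δ libraries lay below both wild-type libraries for 4 snRNAs and above them for 2, with an overlap for U5 alone. Over all transcripts the groups did not overlap for 82.2%, with dbr1Δ below wild type for 55.1% and above it for 27.1%. With TMM from transcripts alone 2 were lower (U6 and U3B) and 2 higher (U4 and U1), and 27.5% of all transcripts were then lower and 26.8% higher. No snRNA changed its direction with the scaling.

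**Figure D2:**
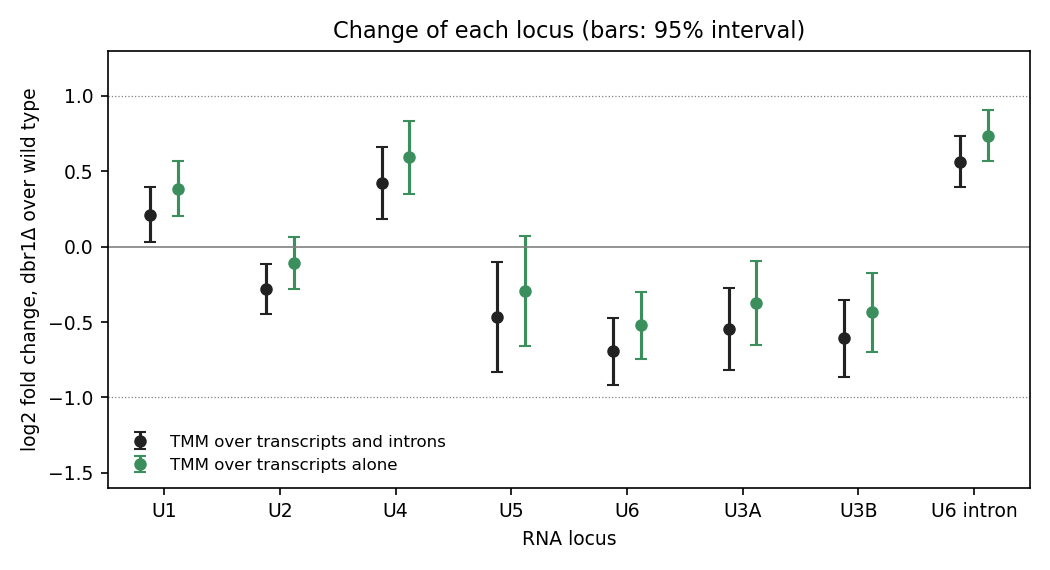
Log2 fold change of each snRNA locus and of the U6 intron, dbr1Δ over wild type, for TMM over transcripts and introns (black) and over transcripts alone (green). Bars are 95% intervals from the standard error by the normal distribution, and are narrower than the edgeR test implies. That of U1 (black) runs from 0.03 to 0.39, though its unadjusted p from edgeR is 0.0508. Dotted lines mark a fold of 2. In both scalings the bars of U6, U3B and U3A stay below 0 and those of U4, U1 and the U6 intron above 0. A bar clear of 0 is not a call, as U1 and U3A did not pass in each scaling.

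U6, the catalytic RNA, fell in dbr1Δ. Its locus had 224 and 273 CPM in wild type against 142 and 166 in dbr1Δ. Every dbr1Δ value was thus below every wild-type value. The log2 fold change was -0.69 ± 0.11 (edgeR adjusted p = 0.00103), or 0.618 of the wild-type level. With TMM from transcripts it was -0.52 (edgeR adjusted p = 0.00521), and it kept an adjusted p under 0.05 without any single library, at -0.83 to -0.54.

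Most reads of the U6 locus can be assigned to the spliced RNA. Reads across the exon-exon junction numbered 4764 and 8230 in wild type and 2993 and 2616 in dbr1Δ, which is 80.1% to 85.9% of the count of the locus, taking them as part of it. Since neither exon is as long as a 49-base read, no read fits inside 1 exon, and each of the 46 windows of that length in the spliced RNA crosses the junction. As CPM of the library total, the remaining reads of the locus stood at 31.1 and 39.4 in wild type and 23.4 and 32.9 in dbr1Δ, and overlapped. Counted by its junction reads alone, an alternative chosen after seeing the data, U6 had a log2 fold change of -0.76 (edgeR adjusted p = 4.06e-04).

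Boundary reads, taken here as the unspliced form of U6, moved the other way. Reads across the 5′ exon-intron boundary numbered 497 and 765 in wild type and 834 and 639 in dbr1Δ. As CPM of the library total they stood at 19.7 and 21.2 in wild type and at 34.5 and 32.3 in dbr1Δ, without overlap. Taken as the count of U6 (also chosen after seeing the data), they gave a log2 fold change of 0.65 (edgeR adjusted p = 4.43e-04), and 0.83 with TMM from transcripts. The unspliced share, boundary reads over boundary plus junction reads, was 9.45% (95% Wilson interval 8.69 to 10.3) and 8.50% (7.95 to 9.10) in wild type. In dbr1Δ it was 21.8% (20.5 to 23.1) and 19.6% (18.3 to 21.0), and the mean was 2.31 times that of wild type. The intervals cover counting error only. The authors counted no junction read with an overlap under 6 bases, and allowed 3 mismatches. As exon 1 has 46 bases, a spliced 49-base read from any of its first few bases overlaps exon 2 by fewer than that. One from the very first base has no more bases of exon 2 than the mismatches allowed, so it can align across the boundary. Such reads could be counted as unspliced, and how many were was not tested.

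**Figure D3:**
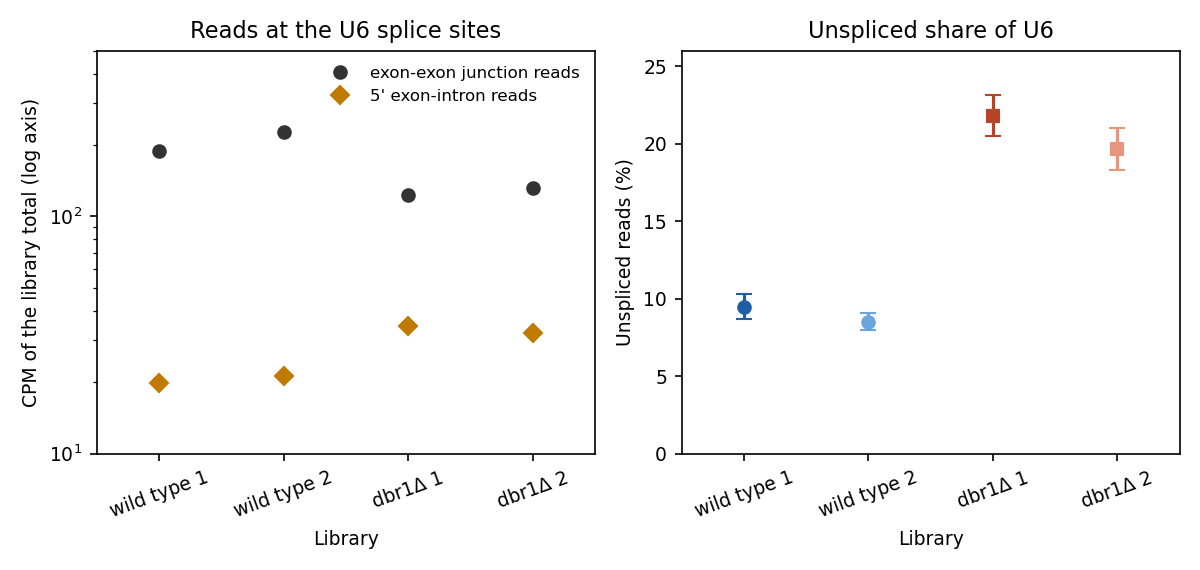
Left, exon-exon junction reads (circles) and 5′ exon-intron reads (diamonds) of U6 as CPM of the library total on a log axis in each library. Right, the unspliced share of U6 in percent with 95% Wilson intervals, between 8.50 and 9.45 in wild type and between 19.6 and 21.8 in dbr1Δ.

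Splicing efficiency (SE) is the log2 of the junction reads plus 1 over the boundary reads plus 1. For the U6 intron it was 3.26 and 3.43 in wild type and 1.84 and 2.03 in dbr1Δ. The mean difference was -1.40, with -1.42 between the libraries numbered 1 and -1.39 between those numbered 2. The Cochran-Mantel-Haenszel (CMH) test of the 2 read classes, which treats reads as independent, gave an adjusted p of 1.34e-120, and edgeR's interaction of read class and strain gave -1.41 (adjusted p = 2.78e-05), which also draws on the spread between cultures. Of the 3029 introns with at least 10 such reads in each library, SE was lower by the CMH test for 24.9% and higher for 0.132%. The U6 intron was near the middle of the introns in the size of its change. The median difference was -1.25 over all 3029 introns and -1.50 over the 80 of 50 bases, and 43.5% of the introns had a larger decrease than U6. In depth it stood apart, with more junction reads than all but 8 introns and more boundary reads than all but 3. Among the 81 introns with at least 500 such reads in each library the median difference was -1.54. The wild-type SE of U6 was low, with 20.3% of the tested introns lower still and a median of 4.65. In dbr1Δ 19.4% were lower. The limit on the boundary reads of U6 given above holds here too.

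**Figure D4:**
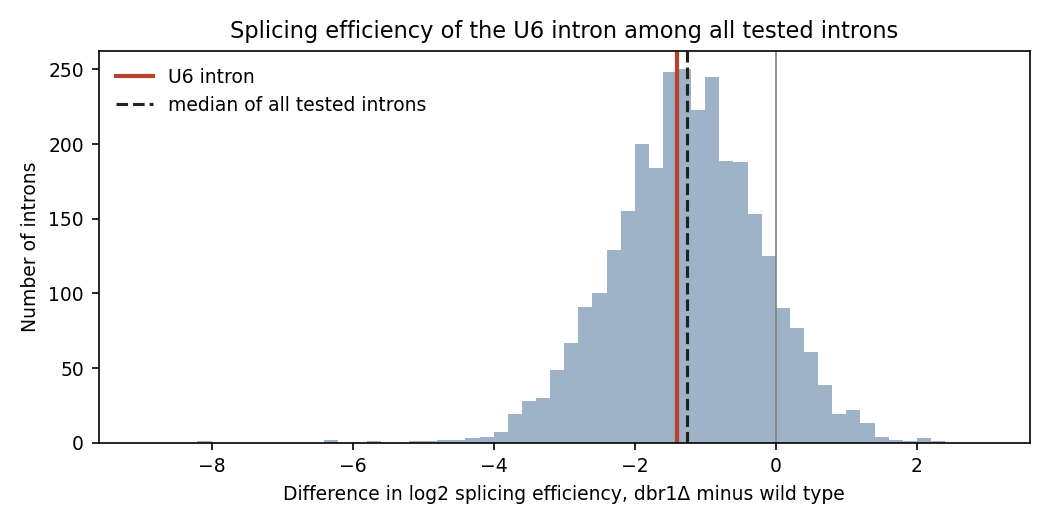
Number of introns (vertical axis) by the difference in log2 splicing efficiency, dbr1Δ minus wild type, over the 3029 tested introns. The U6 intron (red line, -1.40) lies beside the median of all introns (dashed line, -1.25).

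The count of the U6 intron itself, its reads plus the boundary reads, rose. It was 28.7 and 30.8 CPM in wild type against 42.0 and 46.2 in dbr1Δ. The log2 fold change was 0.56 ± 0.09 (edgeR adjusted p = 7.52e-04). Among all tested introns 57.1% were higher at this threshold, and the median was 1.24 on the log2 scale, and among the 61 tested introns of 50 bases the median was 0.59. Most of the count was boundary reads. Reads inside the intron numbered only 213 and 326 in wild type and 220 and 272 in dbr1Δ, where no more than 2 windows of 49 bases fit. Without the boundary reads (an alternative chosen after seeing the data) the log2 fold change was 0.35 (edgeR adjusted p = 0.178). When introns were fitted apart from transcripts it was -0.84 (edgeR adjusted p = 9.49e-07), since that scaling is set by introns alone.

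U4, which enters the spliceosome paired with U6, was the one snRNA that was higher in dbr1Δ by the test. It had 329 and 393 CPM in wild type against 432 and 536 in dbr1Δ, without overlap. The log2 fold change was 0.42 ± 0.12 (edgeR adjusted p = 0.0178), and 0.59 with TMM from transcripts. It no longer passed without wild-type replicate 1 (0.30, edgeR adjusted p = 0.146) or without dbr1Δ replicate 2 (0.29, edgeR adjusted p = 0.0584).

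U1, which recognises the 5′ splice site, had 1657 and 1932 CPM in wild type against 2025 and 2134 in dbr1Δ. Both dbr1Δ values were above both wild-type values by a small margin, and the log2 fold change of 0.21 ± 0.09 (edgeR adjusted p = 0.0793) did not pass. It did pass with TMM from transcripts, at 0.39 (edgeR adjusted p = 0.00862), and without dbr1Δ replicate 1, at 0.30 (edgeR adjusted p = 0.0427).

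U2, which pairs with the branch site, had 2315 and 2460 CPM in wild type against 2075 and 1855 in dbr1Δ. The dbr1Δ values were the lower ones, with a log2 fold change of -0.28 ± 0.09 (edgeR adjusted p = 0.0209). With TMM from transcripts it was -0.11 (edgeR adjusted p = 0.321). It also lost the call without wild-type replicate 1 (-0.33), without wild-type replicate 2 (-0.23) and without dbr1Δ replicate 2 (-0.17).

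U5, which holds the exon ends, had the largest standard error of the 7. It had 1002 and 1326 CPM in wild type against 683 and 1004 in dbr1Δ, and the upper dbr1Δ value lay above the lower wild-type value. The second dbr1Δ culture had 1.47 times the U5 of the first. The log2 fold change was -0.46 ± 0.19 (edgeR adjusted p = 0.0610), and it passed without wild-type replicate 1 (-0.66, edgeR adjusted p = 0.0424) and without dbr1Δ replicate 2 (-0.74, edgeR adjusted p = 0.00530).

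Ratios among the spliceosomal RNAs of 1 library do not depend on the scaling. U1 made up 30.0% and 30.3% of the reads of these 5 loci in wild type and 37.8% and 37.5% in dbr1Δ. U4 made up 5.95% and 6.16% in wild type and 8.07% and 9.41% in dbr1Δ. U6 made up 4.05% and 4.27% in wild type and 2.65% and 2.91% in dbr1Δ, and for these 3 RNAs the strains did not overlap. U5 had 18.1% and 20.8% against 12.8% and 17.6%, also without overlap, and U2 had 41.9% and 38.5% against 38.7% and 32.6%, with overlap. As the log2 ratio to the sum of the other 4, the difference between strains was 0.49 for U1, 0.57 for U4, -0.45 for U5, -0.61 for U6 and -0.28 for U2. A two-sided exact permutation test of 2 cultures against 2 cannot go below p = 0.333, which was reached by each of these except U2 (p = 0.667), or 0.417 and 0.667 after adjustment over the 5. With the U3 loci in the denominator, the value of U2 was 0.091.

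The count of U4 over that of U6 was 1.47 and 1.44 in wild type and 3.05 and 3.24 in dbr1Δ. On the log2 scale the strains differed by 1.11, against an SD of 0.02 within wild type and 0.06 within dbr1Δ. This ratio was chosen after its values were seen and is given as a description, without a test.

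**Figure D5:**
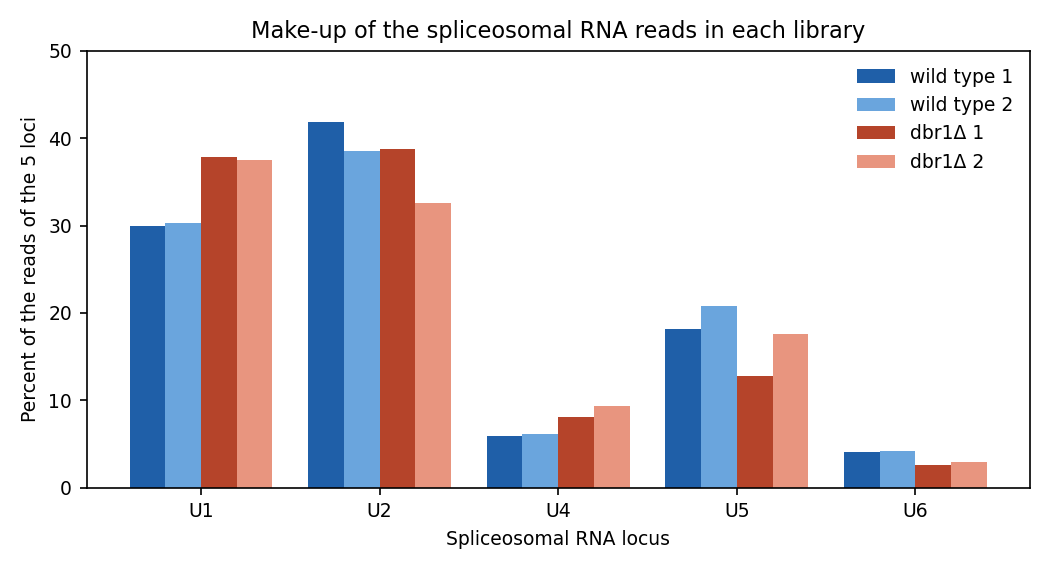
Percent of the reads of the 5 spliceosomal loci that fell on each, by library, with a bar for each of the 4 libraries. U1 and U4 took a larger share and U6 a smaller share in both dbr1Δ libraries than in both wild-type libraries.

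The U3 RNAs of the nucleolus were both lower in dbr1Δ. U3B had 3997 and 5365 CPM in wild type against 2975 and 3164 in dbr1Δ, with a log2 fold change of -0.61 ± 0.13 (edgeR adjusted p = 0.00430). U3A had 3329 and 4620 CPM in wild type against 2666 and 2779 in dbr1Δ, with a log2 fold change of -0.55 ± 0.14 (edgeR adjusted p = 0.00996). The groups did not overlap, but the wild-type cultures differed from each other by 1.34 times for U3B and 1.39 times for U3A. All 7 snRNAs were higher in the second wild-type culture than in the first, whereas the median absolute difference of a transcript between these cultures was 0.08 on the log2 scale. In dbr1Δ 6 of the 7, all but U2, were higher in the second culture, where that median was 0.11. Whether these differences bear on the changes was not tested. With TMM from transcripts U3B still passed (-0.44, edgeR adjusted p = 0.0226) and U3A did not (-0.37, edgeR adjusted p = 0.0524). U3A also lost the call without wild-type replicate 2 (-0.28, edgeR adjusted p = 0.0838) and without dbr1Δ replicate 1 (-0.47, edgeR adjusted p = 0.0604). The ratio of U3B to U3A was 1.20 and 1.16 in wild type and 1.12 and 1.14 in dbr1Δ, a difference of -0.07 on the log2 scale, given as a description.

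Of the transcripts that overlap an snRNA locus or lie within 500 bases of one, 10 were found, and none overlaps the RefSeq RNA. On the same strand, cwf21 shares 83 bases with the U6 locus and had a log2 fold change of -0.13 (edgeR adjusted p = 0.158). The other neighbour of U6, vrs2, had -0.60 (edgeR adjusted p = 3.51e-04). At U1, gpt2 shares 175 bases on the same strand and fell by 0.58 (edgeR adjusted p = 2.61e-04), and zng1 fell by 1.04. The noncoding RNA SPNCRNA.1573 lies on the strand opposite to U1 and zng1, spans zng1 and shares no base with the U1 locus. Its level rose by 1.70 (edgeR adjusted p = 1.53e-04), from 46 and 54 counts to 139 and 105. The gene met17, opposite U4 and sharing 223 bases with its locus, had 0.10 (edgeR adjusted p = 0.351), and tif308, opposite U3A and sharing 191 bases, had -0.22 (edgeR adjusted p = 0.0264). The log2 fold changes were -0.16 for seb1 beside U2, -0.23 for SPBC428.12c beside U4 and -0.06 for grx4 beside U3B, none of which passed the test.

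Among the genes listed by symbol for proteins that bind or mature the snRNAs, more transcripts were lower than higher. Of 67 listed genes tested, edgeR (adjusted p under 0.05) called 42 lower and 5 higher, and 20 did not pass. None changed past a fold of 2 with TMM over transcripts and introns. These counts include sad1 (SPBC12D12.01), a symbol that in fission yeast names a spindle pole body protein, and were not remade without it. The median log2 fold change was -0.38, against -0.18 for all tested transcripts, of which 42.6% were lower and 17.8% higher. With TMM from transcripts 30 were lower and 7 higher, with a median of -0.21, against 27.5% lower and 26.8% higher over all transcripts. Of the genes named below smd1, smg1, lsm8 and usp101 then did not pass, and mpn1 rose past a fold of 2 (1.12, edgeR adjusted p = 2.12e-04). Values below are log2 fold changes with TMM over transcripts and introns.

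The Sm ring, which U1, U2, U4 and U5 carry, had 5 of 7 genes lower and none higher, including sme1 (-0.55), smd2 (-0.48), smd1 (-0.35) and smg1 (-0.34). With TMM from transcripts 2 of the 7 were lower, against 27.5% of all transcripts in that scaling. The LSm ring of U6 had 4 of 7 lower and 1 higher, and 2 lower and 1 higher with DESeq2. With TMM from transcripts 2 were lower and 2 higher, near the shares of 27.5% and 26.8% over all transcripts in that scaling. In this ring lsm6 fell by 0.73, lsm3 by 0.54 and lsm8 by 0.40, and lsm4 rose by 0.28. Of the U1 proteins 8 of 9 were lower, among them prp39 (-0.80), usp102 (-0.65), prp40 (-0.62) and usp101 (-0.49), and 5 were with TMM from transcripts. Of the U2 proteins 5 of 11 were lower, near the share of 42.6% over all tested transcripts. With TMM from transcripts 5 were lower and 1 higher. The lower ones include msl1 (-0.80), sap145 (-0.57), sap14 (-0.54) and prp12 (-0.53), the last 3 in the SF3b complex that grips the branch site. Of the genes listed for U4/U6 and U5 proteins, sad1 included, 12 of 17 were lower and 1 higher, and 9 and 1 with TMM from transcripts. They include snu66 (-0.73), brr2, the helicase that unwinds U4 from U6 (-0.62), spp42, the Prp8 protein at the heart of the spliceosome (-0.60), and snu13, which binds U4 and also U3 (-0.52).

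The maturation factors went both ways, with 3 of 9 higher and 2 lower, against 17.8% and 42.6% of all tested transcripts. With TMM from transcripts the counts were the same, near the shares over all transcripts of 26.8% higher and 27.5% lower. DESeq2 gave 1 higher and 2 lower. The transcript of mpn1, the exonuclease that trims the 3′ end of U6, was higher by 0.95 ± 0.13 (edgeR adjusted p = 4.89e-04), from a mean of 7.90 to one of 15.2 CPM. It was followed by yip11, the Gemin2 protein of the complex that loads the Sm ring, at 0.35. The transcript of sla1, the La protein that binds the ends of new RNA polymerase III transcripts such as U6, fell by 0.75, and pof8, a La-related protein, fell by 0.54. Of the proteins of the U3 particle 7 of 8 were lower, with mpp10 at -0.88, imp4 at -0.82 and rrp9 at -0.65, and 6 were with TMM from transcripts.

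By centred log2 CPM over the 4 libraries, the transcripts nearest to U6 among 5518 with a mean count of at least 100 were ibp1 (Euclidean distance 0.0915), SPAC17A5.05c (0.102) and SPAPB24D3.02c (0.105). Their log2 fold changes were -0.65, -0.63 and -0.75, beside -0.69 for U6. This likeness follows from the choice, which was made on the same 4 libraries.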

How the data were processed

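RNA of 2 wild-type and 2 dbr1Δ cultures was analysed, grouped by their labels. From 4 µg of total RNA, rRNA was depleted, the rest was fragmented to about 200 nt, and libraries were amplified with 15 PCR cycles. The authors aligned 49-base reads with Bowtie, allowing 3 mismatches, against Ensembl build EF1 and its exon-exon junctions, and removed reads that matched several loci. The deposited values are counts per transcript or intron, with reads across the 5′ exon-intron boundary counted apart. The deposited log2 values are log2(RPKM + 1e-05) for expression and log2 splicing efficiency. The table also holds the authors' own fold changes and p-values of the strain comparison, deposited by the authors, which were not used here.

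Junction reads were recovered from splicing efficiency and boundary reads, and 100% came out whole within 0.01. They never exceeded the count of their transcript. The boundary reads of an intron were added to its own reads. A joint fit of transcripts and introns was made in R 4.3.3 with edgeR 4.0.16 (quasi-likelihood test, TMM, 10 or more counts in 2 or more libraries), with Benjamini-Hochberg adjustment over 9518 loci. The edgeR step was also run on simulated data with 200 changed loci, as a check made after the fits. Splicing efficiency was tested by CMH over the replicate numbers as strata, and snRNA ratios by exact permutation, in Python 3.11.15 with SciPy 1.17.1. A call is an adjusted p under 0.05, also counted with a fold over 2. Alternatives were DESeq2 1.42.0, other scalings, filters and fits, a replicate block, and leaving out each library.

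Coordinates of loci are the authors'. Sequences and RNA coordinates are from RefSeq ASM294v3, in which 99.7% of 5304 nuclear introns of at least 30 bases open with GT and close with AG at the authors' coordinates. By identifier, 6844 of 7022 transcripts have a RefSeq entry. Of 68 listed pathway genes 67 were matched, and dib1 was not analysed here. The spliced U6 sequence is not reported here. The text names every snRNA locus and its intron, dbr1, transcripts overlapping or within 500 bases of an snRNA locus, from each pathway list up to 4 genes (adjusted p under 0.05, ranked by size of change), and the 3 transcripts nearest to the snRNA with the largest change. The members, lists and rules were chosen with earlier results of these data known. Cultures are biological repeats, and with 2 per strain the p-values rest on the spread pooled across loci.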

Additional observations from a re-analysis of the deposited data

How the results depend on the processing

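U3B and dbr1 kept their direction and their call under all alternatives run, and so did U6 except where its boundary reads were taken as its count (0.65, and 0.83 with TMM from transcripts). U6, U3B and dbr1 had ranges of -0.83 to -0.54, -0.81 to -0.37 and -2.89 to -2.62 when each library was left out. The other log2 fold changes then ran from 0.10 to 0.34 for U1, -0.33 to -0.17 for U2, -0.77 to -0.28 for U3A, 0.29 to 0.62 for U4, -0.74 to -0.17 for U5 and 0.51 to 0.68 for the U6 intron. Scaling moved the calls. U1 passed with library totals alone (0.26), with TMM from transcripts (0.39), from nuclear protein-coding transcripts (0.44), with a minimum mean of 50 counts (0.32) and in separate fits (0.39). U2 lost its call in the same 5 settings (-0.23, -0.11, -0.049, -0.17 and -0.11). U3A lost it with TMM from transcripts (-0.37), from nuclear protein-coding transcripts (-0.31) and in separate fits (-0.37). U5 passed without a filter on low counts (-0.50). The U6 intron turned to -0.84 in the separate fit, whose scaling comes from introns alone, and did not pass without boundary reads (0.35).

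The number of snRNAs higher was 2 in place of 1 with library totals, TMM from transcripts, from nuclear protein-coding transcripts, a minimum mean of 50 counts and separate fits, and 0 to 2 without single libraries. The number lower was 2 in place of 4 with TMM from transcripts, from nuclear protein-coding transcripts and in separate fits, and 2 to 4 without single libraries. Past a fold of 2 it was 0 in each direction (0 to 0 without single libraries), and without the fold cutoff 1 was higher and 4 lower. Of the pathway genes 5 were higher, which became 10 with scaling from nuclear protein-coding transcripts, 2 with DESeq2, 2 without a filter, 3 with the block and 1 to 5 without single libraries. The 42 lower became 25 with the nuclear protein-coding scaling and 33 to 37 without single libraries.

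The labels share the replicate numbers 1 and 2, but nothing says that they pair cultures, and deviations of same-numbered libraries had a correlation of -0.02 over 9518 loci. With the replicate block U2 no longer passed (-0.28, adjusted p = 0.0542 from edgeR) and U5 did (-0.48, adjusted p = 0.00396 from edgeR).

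The splicing efficiency difference of U6 was -1.41 by edgeR's interaction, -1.45 after thinning to the smallest library, and -1.42 to -1.39 within single replicate numbers. The within-library log2 ratios ran, without single libraries, from 0.48 to 0.50 for U1, -0.48 to -0.089 for U2, 0.44 to 0.69 for U4, -0.72 to -0.17 for U5 and -0.68 to -0.54 for U6. With U3 in the denominator they were 0.68 for U1, 0.091 for U2, 0.80 for U4 and -0.34 for U6, since the U3 loci fell and outnumber the others, and with RPKM U1 was 0.52. For moved values whose cause is not stated, the cause was not tested.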
